A study of Homo sapiens with 6 samples.

Results

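The genes described here are 10 regulators of the BCL2 family, the proteins that decide whether mitochondria release the factors that start apoptosis. They are BCL2, BCL2L1, MCL1, BAX, BAK1, BBC3, PMAIP1, BCL2L11, BID and BAD, were chosen by gene symbol, and were all found among the 17687 genes of the count table. All 10 also passed the filter on low counts, which kept 14005 genes. RNA came from KHM-5M, an anaplastic thyroid cancer cell line, grown in RPMI-1640 with fetal bovine serum. Control cells received PBS, SS cells received sodium selenite (SS), and SS+NAC cells received SS together with N-acetylcysteine (NAC), a thiol antioxidant. Each of the 3 groups had 2 libraries, and the comparisons ask how the mRNA of the family differs after SS and when the antioxidant is present. No group received NAC alone, so effects of SS and of NAC itself in SS+NAC cells cannot be told apart. The data cover 1 cell line, and the exposure time of the sequenced cells and the unit of the number in the SS titles are not given in the sources used here.

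Proteins of the BCL2 family act at the outer mitochondrial membrane. The guardians BCL2, BCL-XL (encoded by BCL2L1) and MCL1 hold the effectors BAX and BAK in check, and free effectors form pores that let cytochrome c escape to the apoptosome. Proteins with only a BH3 domain, among them PUMA (BBC3), NOXA (PMAIP1), BIM (BCL2L11), BID and BAD, sense stress and bind the guardians, and some also activate the effectors directly. Much of this control acts on protein, through phosphorylation, cleavage and degradation, and mRNA levels do not show it.

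The libraries held 17645545 and 22016655 expected counts in control, 23493415 and 23810056 in SS, and 23682740 and 22617180 in SS+NAC. Levels are given as CPM, counts relative to the library total after TMM scaling, or as TPM, which also divide by transcript length. SE stands for standard error. The thyroid transcription factor PAX8 was expressed in every library, at 253 to 278 CPM. Other thyroid genes were low, with TG, SLC5A5 and FOXE1 at 0.776 to 2.62 CPM and NKX2-1 at no more than 0.228 CPM. The 11 epithelial and thyroid markers in the table summed to 2045 and 2114 CPM in control, 2531 and 3006 in SS, and 2013 and 1634 in SS+NAC, with KRT8 as the most abundant gene in each library. Of their 10 tested genes, KRT7, KRT8 and KRT18 were called higher in SS than in control, 3 genes where 40.0% of all tested genes were called, and DESeq2 also called 3. With an offset for transcript length 0 were called by edgeR, against 9.23% of all tested genes, and 3 had an unadjusted p under 0.05. Between SS and SS+NAC 3 were called, all higher in SS, against 42.7% of all tested genes, and 4 with the offset, all higher, against 14.4%, with a median of 0.42. The 8 mesenchymal markers summed to 11029 and 11473 CPM in control, 12250.3 and 12309 in SS, and 12537 and 13018 in SS+NAC, led by VIM in control and SS and by FN1 in SS+NAC. VIM was called higher, and CDH2, ZEB1 and ZEB2 lower, in SS, 4 of 7 tested genes. With the offset ZEB1 alone was called, against 9.23% of all tested genes. Of these 7, 6 were called for SS over SS+NAC, 1 higher and 5 lower, against 42.7% of all tested genes. In that comparison 2 were called with the offset, 1 in each direction, against 14.4%. Blood and endothelial markers summed to between 3.56 and 5.57 CPM, and PTPRC, CD3E and VWF stayed under 1 CPM throughout. Of the 5 tested, edgeR and DESeq2 called 0 for SS over control, and 1 had an unadjusted edgeR p under 0.05. Whether the shift of these markers has a part in the values of the BCL2 family was not tested. In bulk RNA, a change in each cell and a change in the share of cells that express a gene cannot be told apart.

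Between SS and control, 6 of the 10 genes passed edgeR's quasi-likelihood test at a Benjamini-Hochberg adjusted p of at most 0.05, among 40.0% of all tested genes. BAX, BBC3, PMAIP1, BID and BAD were higher in SS, where 18.6% of tested genes were called higher, and BCL2 was lower, where 21.4% were called lower. Between SS+NAC and control, PMAIP1 alone was called, higher in SS+NAC, in a comparison in which 2.01% of tested genes were called and 1.36% were called higher. Between SS and SS+NAC, BCL2L1, BAX, BID and BAD were higher in SS and BCL2 and MCL1 were lower, so 6 genes passed, where 42.7% of tested genes were called, 19.6% higher and 23.1% lower. The median log2 fold change of the 10 genes was 0.31 for SS over control, against 0.00 over all tested genes, and 0.10 for SS over SS+NAC, against -0.03. With the offset for transcript length the medians of the 10 genes were 0.04 and -0.02, against 0.01 over all tested genes in both comparisons. These 3 comparisons share libraries, so their values for a gene are linked by construction.

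**Figure D1:**
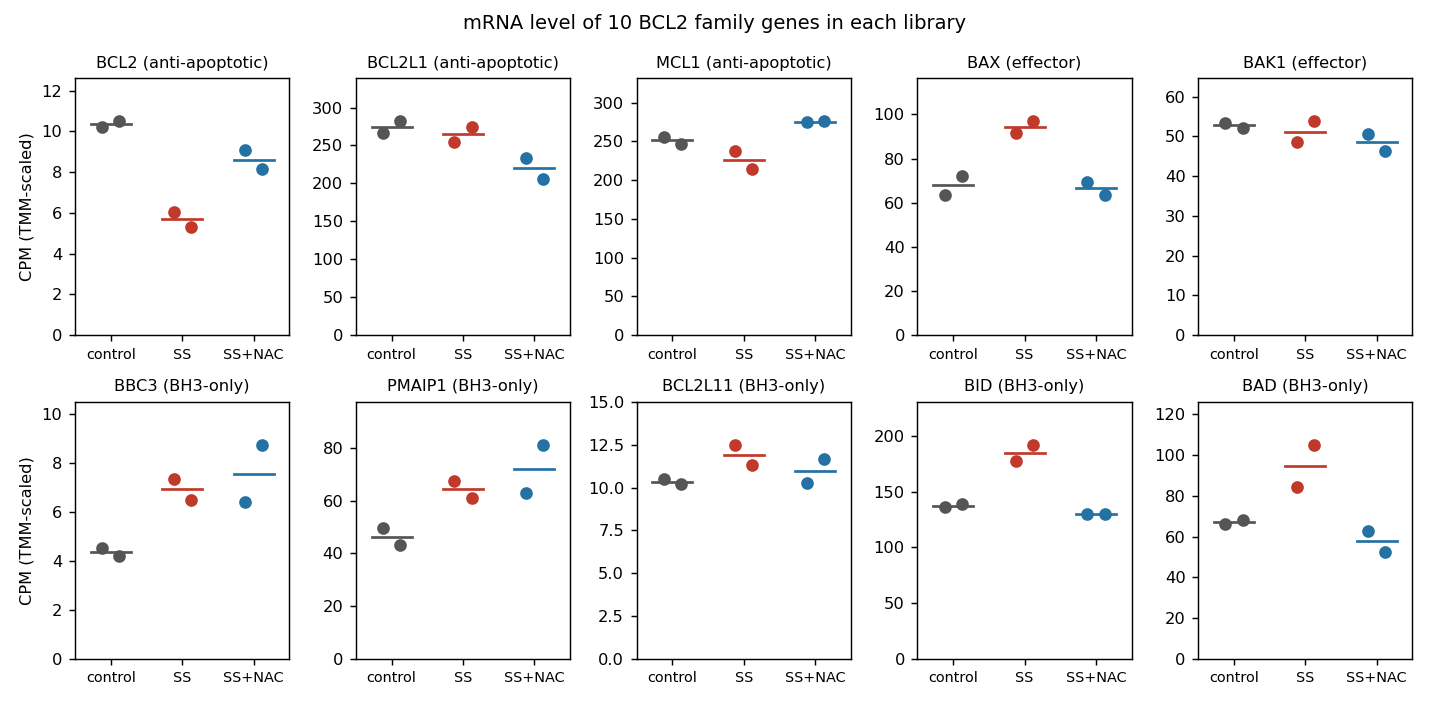
Level of each of the 10 genes in each library, in CPM after TMM scaling, with every axis starting at 0; dots are libraries (2 per group) and horizontal bars are group means. BCL2 is lowest and BAX, BID and BAD are highest in SS, whereas BBC3 and PMAIP1 are higher in all 4 treated libraries than in both control libraries.

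The number of called genes rested on single libraries in places. For SS over control, 5609 genes were called with all libraries, 3118 without control replicate 1, 3628 without control replicate 2 and 3164 without SS replicate 2. For SS+NAC over control, 282 genes were called, 98 and 99 without control replicate 1 or 2, and 1086 without SS+NAC replicate 1. The number of BCL2 family genes called there was 0 without either control library, where PMAIP1 was no longer called, and 3 without SS+NAC replicate 1. For SS over SS+NAC, 5985 genes were called, and 3250 without SS replicate 2, which also left 3 of the 6 BCL2 family genes called, BAX, BID and BAD.

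**Figure D2:**
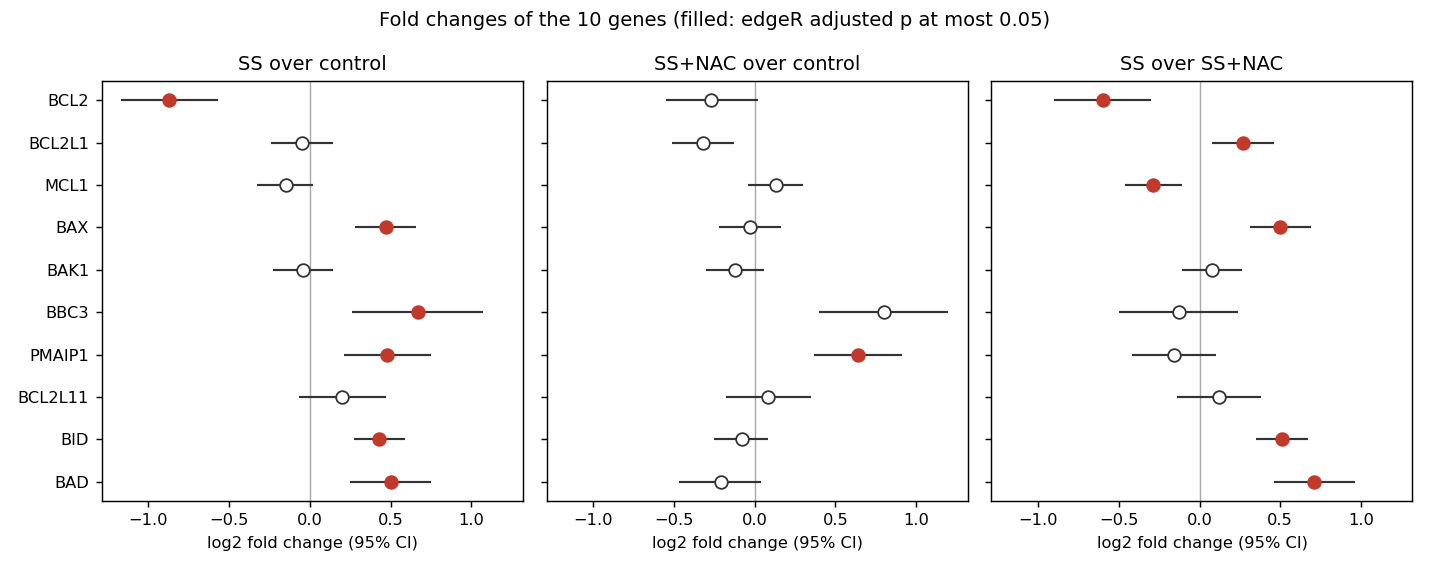
Log2 fold change of each gene in the 3 comparisons, with its 95% confidence interval from edgeR; filled points have an adjusted p of at most 0.05. BCL2 lies at -0.87 for SS over control and at -0.60 for SS over SS+NAC, and BBC3 and PMAIP1 lie at 0.80 and 0.64 for SS+NAC over control, of which only PMAIP1 is called.

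BCL2, the founding guardian of the family, lies on the minus strand of chromosome 18 from 63123346 to 63320128 (GRCh38). Its level was 10.2 and 10.5 CPM in the control libraries, 6.06 and 5.30 CPM in SS, and 9.07 and 8.14 CPM in SS+NAC. Both SS libraries lay below all 4 others, and both SS+NAC libraries lay between the SS and the control libraries, without overlap. BCL2 fell by 0.87 on the log2 scale from control to SS (SE 0.135, edgeR adjusted p = 0.000882), to 0.549 times the control level. Compared with SS+NAC it was lower in SS by a log2 fold change of -0.60 (SE 0.135, edgeR adjusted p = 0.00537), a call that was lost without SS replicate 2 (-0.51, edgeR adjusted p = 0.0519) and with the length offset (-0.39, edgeR adjusted p = 0.0760). The difference between SS+NAC and control was -0.27 (SE 0.128, edgeR adjusted p = 0.334) and did not pass the test. The counts behind these levels were small, at 183 and 233 in control, 139 and 116 in SS, and 219 and 196 in SS+NAC.

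BCL2L1 encodes BCL-XL and lies on chromosome 20 from 31664452 to 31723989. It was counted at 266 and 282 CPM in control, 255 and 275 CPM in SS, and 234 and 206 CPM in SS+NAC. Control and SS overlapped, and both SS+NAC libraries were the lowest. The log2 fold change was -0.05 for SS over control (SE 0.0858, edgeR adjusted p = 0.680) and -0.32 for SS+NAC over control (SE 0.0859, edgeR adjusted p = 0.103). That second comparison passed the Wald test of DESeq2 (adjusted p = 0.0176) and passed in edgeR without SS+NAC replicate 1 (-0.42, adjusted p = 0.00987). It did not pass without SS+NAC replicate 2 (-0.23, edgeR adjusted p = 0.263), control replicate 1 (-0.36, 0.346) or control replicate 2 (-0.27, 0.576), nor with the replicate block (-0.32, edgeR adjusted p = 0.222). BCL2L1 was higher in SS than in SS+NAC by 0.27 (SE 0.0858, edgeR adjusted p = 0.0282). This call was lost without control replicate 1 (0.27, edgeR adjusted p = 0.0602), without SS replicate 2 (0.21, edgeR adjusted p = 0.182) and without SS+NAC replicate 2 (0.17, edgeR adjusted p = 0.157). It was also lost with replicate number as a block (0.27, edgeR adjusted p = 0.0638) and with the length offset (0.22, edgeR adjusted p = 0.0881). Of the 2610 exon bases of its GENCODE transcript, 37.4% are shared with the antisense gene ABALON on the other strand. The use of strand in the counting is not given in the sources used here, so reads of both genes cannot be told apart.

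MCL1, a guardian with a short-lived protein, lies on chromosome 1 from 150574551 to 150579738. Its level was 256 and 247 CPM in control, 238 and 214 CPM in SS, and 275 and 276 CPM in SS+NAC. The groups did not overlap, with SS lowest and SS+NAC highest. The step from control to SS, -0.15 on the log2 scale (SE 0.0775, edgeR adjusted p = 0.140), did not pass the test, nor did that from control to SS+NAC, 0.13 (SE 0.0773, edgeR adjusted p = 0.425). MCL1 was lower in SS than in SS+NAC, with a log2 fold change of -0.29 (SE 0.0774, edgeR adjusted p = 0.0131), or -0.21 and not called without SS replicate 2 (edgeR adjusted p = 0.121). The length offset ended this call as well (-0.11, edgeR adjusted p = 0.285).

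Of the pore-forming effectors, BAX (chromosome 19, 48954815 to 48961798) was counted at 63.6 and 72.2 CPM in control, 91.6 and 96.9 CPM in SS, and 69.4 and 63.6 CPM in SS+NAC. Both SS libraries were above the other 4, and control and SS+NAC overlapped. BAX rose by 0.47 over control (SE 0.0856, edgeR adjusted p = 0.00189) and was higher by 0.50 than in SS+NAC (SE 0.0851, edgeR adjusted p = 0.00124), and both calls were kept without any 1 library. With the length offset both were lost, at -0.01 (edgeR adjusted p = 0.971) and 0.01 (edgeR adjusted p = 0.962). BAK1, the gene of the other effector, on chromosome 6 from 33572547 to 33580293, was counted at 53.3 and 52.2 CPM in control, 48.6 and 53.8 CPM in SS, and 50.6 and 46.4 CPM in SS+NAC. SS overlapped both other groups. Its log2 fold changes were -0.04, -0.12 and 0.08 for SS over control, SS+NAC over control and SS over SS+NAC, none of which passed (edgeR adjusted p of at least 0.490). GENCODE lists the pseudogenes BAK1P1 and BAK1P2, which are named after BAK1 and whose sequences were not compared with it. GGNBP1 on the other strand shares 4.26% of its exon bases.

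Among the genes of BH3-only proteins, PMAIP1 and BBC3 were the pair with higher levels in all 4 treated libraries than in both control libraries. The share of all tested genes separated in this way is not given here, and BBC3 was not called for SS+NAC over control. For this pair the sequence before the start sites is shown, from RefSeq on GRCh38.p14, on the gene's own strand and without any base of an annotated GENCODE transcript of the gene. PMAIP1 is on the plus strand at chr18:59899746-59899947, and BBC3 on the minus strand at chr19:47232767-47232917. Capitals mark the motif matches named after them.
PMAIP1: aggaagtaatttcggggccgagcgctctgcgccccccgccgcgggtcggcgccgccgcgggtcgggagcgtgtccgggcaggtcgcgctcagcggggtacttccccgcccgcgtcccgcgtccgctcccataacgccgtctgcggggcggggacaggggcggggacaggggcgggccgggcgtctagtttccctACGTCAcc
BBC3: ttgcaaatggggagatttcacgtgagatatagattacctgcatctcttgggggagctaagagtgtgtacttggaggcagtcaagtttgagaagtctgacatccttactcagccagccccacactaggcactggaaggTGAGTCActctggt
The 250 bases before the RefSeq start were searched on both strands in 9 of the 10 genes for 6 motifs, and matches are counted here in all 35116 promoters of that length. PMAIP1 held the core of the cAMP response element, TGACGT, on the minus strand, starting 56 bases before the start, as did 7.1% of promoters. BBC3 held the AP-1 element TGANTCA 113 bases before the start, found in 6.57% of promoters. BAD held TGACGT and the antioxidant response element TGACNNNGC, BAX held the latter (10.9% of promoters), and BAK1 held 10 letters that form only part of a p53 element (5.57%). A full p53 element was not searched for. The full cAMP response element TGACGTCA, which contains the core (1.65%), and the C/EBP-ATF element TGATGNAA (3.14%) were in none of the 9, and no motif was in the windows of BCL2, BCL2L1, BCL2L11 or BID. A match is a run of letters, and binding was not measured.

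PMAIP1 encodes NOXA, a partner of MCL1, on chromosome 18 from 59899948 to 59904306. Its level was 49.5 and 43.0 CPM in control, 67.6 and 61.1 CPM in SS, and 62.8 and 81.1 CPM in SS+NAC. Both treated groups lay above both control libraries, and they overlapped each other. PMAIP1 rose by 0.48 with SS (SE 0.122, edgeR adjusted p = 0.0104) and by 0.64 with SS+NAC (SE 0.121, edgeR adjusted p = 0.0249). The first call was lost with the length offset (0.29, edgeR adjusted p = 0.197), without control replicate 2 (0.41, edgeR adjusted p = 0.0618) or without SS replicate 1 (0.40, edgeR adjusted p = 0.0692), and the second without control replicate 1 (0.74, edgeR adjusted p = 0.0511) and without control replicate 2 (0.54, edgeR adjusted p = 0.183). SS over SS+NAC gave -0.16 (SE 0.119, edgeR adjusted p = 0.305), with a 95% interval from -0.42 to 0.10. Here SS+NAC replicate 2 set the sign, which was positive without it (0.03), and without SS+NAC replicate 1 the gene was called lower in SS (-0.33, edgeR adjusted p = 0.00839).

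BBC3, the gene of PUMA, lies on chromosome 19 from 47220822 to 47232766. It was low, at 4.50 and 4.21 CPM in control, 7.32 and 6.49 CPM in SS, and 6.38 and 8.72 CPM in SS+NAC, from between 81 and 210 counts. Again both treated groups lay above control and overlapped each other. BBC3 rose by 0.67 with SS (SE 0.183, edgeR adjusted p = 0.0147), which missed the threshold without control replicate 1 (0.71, edgeR adjusted p = 0.0505), control replicate 2 (0.64, 0.0678) or SS replicate 1 (0.58, 0.0802), and with the length offset (0.43, edgeR adjusted p = 0.189). With SS+NAC the log2 fold change was 0.80 (SE 0.180) but missed the threshold (edgeR adjusted p = 0.0543), and it passed without SS+NAC replicate 1 (edgeR adjusted p = 0.00161) or with at least 10 counts asked of every library (0.81, edgeR adjusted p = 0.0480). It did not pass without SS+NAC replicate 2 (0.55, edgeR adjusted p = 0.162), control replicate 1 (0.84, 0.195) or control replicate 2 (0.75, 0.328), nor in DESeq2 (0.77, adjusted p = 0.0907). For SS over SS+NAC the value was -0.13 (SE 0.167, edgeR adjusted p = 0.575), with a 95% interval from -0.50 to 0.24, and 0.11 without SS+NAC replicate 2.

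The remaining BH3-only genes were BCL2L11, BID and BAD. BCL2L11, which encodes BIM, on chromosome 2 from 111119378 to 111168447, was counted at 10.5 and 10.2 CPM in control, 12.5 and 11.3 CPM in SS, and 10.3 and 11.7 CPM in SS+NAC. Both SS libraries were above control and SS+NAC overlapped both, but the difference between SS and control of 0.20 did not pass (SE 0.120, edgeR adjusted p = 0.213). The other comparisons gave 0.08 and 0.12 (edgeR adjusted p of at least 0.456), and 9.53% of its exon bases overlap MIR4435-2HG on the other strand. BID encodes a protein that caspase-8 cuts into an active form, and lies on chromosome 22 from 17734138 to 17774770. Its level was 136 and 139 CPM in control, 178 and 192 CPM in SS, and 129.8 and 129.6 CPM in SS+NAC. Both SS libraries stood above all others. BID rose by 0.43 over control (SE 0.0728, edgeR adjusted p = 0.00135) and was 0.51 higher than in SS+NAC (SE 0.0727, edgeR adjusted p = 0.000566). These calls were kept without any 1 library.

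BAD, whose protein is held inactive by phosphorylation and 14-3-3 binding, lies on chromosome 11 from 64269830 to 64284704. Its level was 66.1 and 67.9 CPM in control, 84.2 and 105 CPM in SS, and 62.9 and 52.6 CPM in SS+NAC. SS was highest and SS+NAC lowest, without overlap between groups. The rise over control was 0.50 (SE 0.114, edgeR adjusted p = 0.00611), and 0.33 and not called without SS replicate 2 (edgeR adjusted p = 0.0728). BAD was 0.71 higher in SS than in SS+NAC (SE 0.114, edgeR adjusted p = 0.000934). The length offset ended both calls, with 0.05 over control (edgeR adjusted p = 0.760) and 0.26 over SS+NAC (edgeR adjusted p = 0.0729). SS+NAC over control gave -0.21 (SE 0.115, edgeR adjusted p = 0.385). GPR137 shares 32.8% of the exon bases of BAD on the other strand and was counted at 33.5 and 35.1 CPM in control, 40.1 and 44.0 in SS, and 35.2 and 31.9 in SS+NAC. It too was called higher in SS than in control (0.29, edgeR adjusted p = 0.0209), and not with the offset (0.08, edgeR adjusted p = 0.556), so reads of these genes cannot be told apart with certainty.

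Compared per transcript length, the genes fell into 3 ranges of level in control. On the TPM scale, the mean level was 210.0 ± 5.94 (SD, n = 2) for BCL2L1, 163 ± 12.8 for BAX, 136 ± 1.10 for BAD, 124 ± 0.198 for BID and 122 ± 4.79 for MCL1. BAK1 at 47.3 ± 1.51 TPM and PMAIP1 at 47.1 ± 5.41 TPM came next, and BBC3 at 4.88 ± 0.460, BCL2L11 at 4.80 ± 0.382 and BCL2 at 4.67 ± 0.240 TPM were lowest. BID and MCL1, BAK1 and PMAIP1, and the lowest group of BBC3, BCL2L11 and BCL2 overlapped between libraries. In SS, BAX was first at 189 ± 6.13 TPM (SD, n = 2), BCL2L1 followed at 171 ± 2.60 TPM, and BCL2 was last at 2.22 ± 0.163 TPM, below BCL2L11 at 4.75 ± 0.658 TPM. In SS+NAC, BCL2L1 (176 ± 7.03 TPM, SD, n = 2) and BAX (167 ± 2.30 TPM) led, followed by MCL1 at 141 ± 8.17 TPM, and BCL2 was last at 4.14 ± 0.255 TPM. Over all tested genes, the median log2 ratio of mean TPM was -0.26 for SS over control and -0.36 for SS over SS+NAC, so TPM differences between groups are read relative to this shift. The log2 TPM ratio and the CPM fold change had opposite signs for BCL2L11 for SS over control (-0.01 by TPM, 0.20 by CPM). For SS over SS+NAC the same held for BCL2L1 (-0.04 and 0.27), BAK1 (-0.26 and 0.08) and BCL2L11 (-0.18 and 0.12), and for SS+NAC over control for BAX (0.04 and -0.03, at a median TPM shift of 0.05). Measured against the shift of their comparison, all of these TPM ratios had the sign of the CPM value.

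The ratio of BAX to BCL2 mRNA, taken within each library on the TPM scale, was 34.1 and 35.5 in control, 82.4 and 87.3 in SS, and 39.0 and 41.7 in SS+NAC. SS stood apart from both other groups, and SS+NAC lay slightly above control without overlap. The ratio of MCL1 to PMAIP1 TPM was 2.46 and 2.74 in control, 1.76 and 1.73 in SS, and 2.11 and 1.66 in SS+NAC. Both treated groups were below control, and they overlapped. Summed over BCL2, BCL2L1 and MCL1, TPM were 335 and 337 in control, 279 and 255 in SS, and 321 and 322 in SS+NAC. BCL2 made up between 0.826% and 1.43% of these sums. The sums for the 5 BH3-only genes were 319 and 314 TPM in control, 359 and 364 in SS, and 323 and 347 in SS+NAC. Differences of these sums between groups are read against the median log2 TPM ratio of all tested genes. It was -0.26 for SS over control and -0.36 for SS over SS+NAC. By CPM, BCL2L1 (-0.05, edgeR adjusted p = 0.680) and MCL1 (-0.15, edgeR adjusted p = 0.140) were not called for SS over control. No test was made on these ratios and sums, and the length offset was not applied to them. With that offset, the log2 fold changes of BAX and BCL2 for SS over control differed by 0.65, against 1.34 without it. Those of MCL1 and PMAIP1 differed by -0.27, against -0.63 without it.

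**Figure D3:**
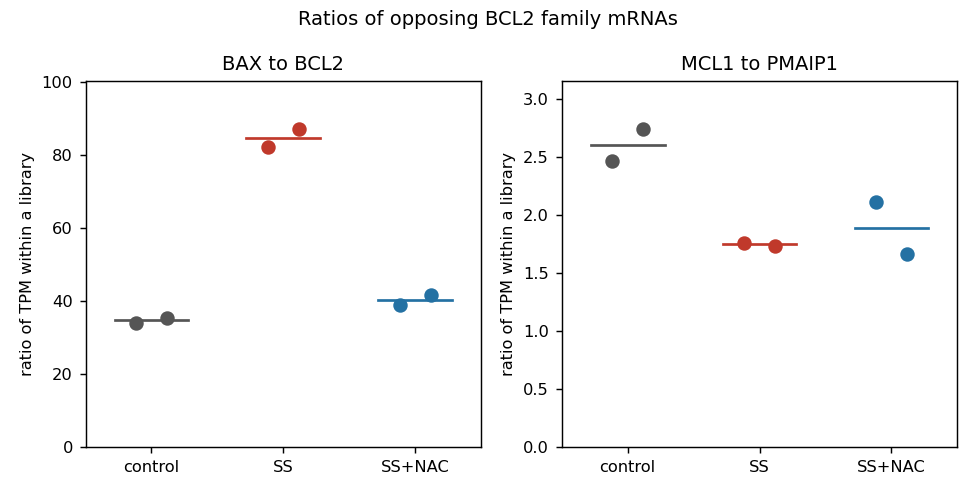
Ratio of BAX to BCL2 and of MCL1 to PMAIP1 on the TPM scale within each library, on axes that start at 0; dots are libraries (2 per group) and bars are group means. The BAX to BCL2 ratio is 82.4 and 87.3 in SS and at most 41.7 elsewhere, without the length offset.

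Fold changes of SS varied with transcript length across the whole table. Across the 14005 tested genes, none of them a replicate of another, the rank correlation (Spearman's rho) of effective length with log2 fold change was -0.68 for SS over control, -0.0376 for SS+NAC over control and -0.637 for SS over SS+NAC. The median change for SS over control was 0.457 in the shortest eighth of genes and -0.461 in the longest. BAX and BAD have short effective lengths of 816 and 967 bases, whereas MCL1, BCL2L11 and BCL2 have 3994, 4172 and 4277 bases. An offset that removes the length trend from each library was therefore fitted as well, which left 9.23% of tested genes called for SS over control, 2.01% for SS+NAC over control and 14.4% for SS over SS+NAC. Whether length itself causes the trend was not tested.

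With this offset, 2 of the 10 genes were called for SS over control, against 9.23% of all tested genes. BCL2 was lower by -0.66 (SE 0.133, edgeR adjusted p = 0.0143) and BID was higher by 0.29 (SE 0.0644, edgeR adjusted p = 0.0220). The changes of BAX and BAD became -0.01 (edgeR adjusted p = 0.971) and 0.05 (edgeR adjusted p = 0.760), with 95% intervals from -0.18 to 0.16 and from -0.14 to 0.25. BBC3 had 0.43 (edgeR adjusted p = 0.189) and PMAIP1 0.29 (edgeR adjusted p = 0.197), the same sign as before but past the threshold no longer. BCL2L11 moved the other way, to 0.40 (edgeR adjusted p = 0.0590), and MCL1 changed sign to 0.02 (edgeR adjusted p = 0.883). For SS+NAC over control, PMAIP1 was called with the offset too (0.62, edgeR adjusted p = 0.0379), against 2.01% of all tested genes. BBC3 had 0.78 (edgeR adjusted p = 0.0687).

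For SS over SS+NAC, BID alone was called with the offset, at 0.39 (SE 0.0642, edgeR adjusted p = 0.00465), against 14.4% of all tested genes. The calls of BCL2 (-0.39, edgeR adjusted p = 0.0760), BCL2L1 (0.22, edgeR adjusted p = 0.0881), MCL1 (-0.11, edgeR adjusted p = 0.285), BAX (0.01, edgeR adjusted p = 0.962) and BAD (0.26, edgeR adjusted p = 0.0729) were lost, and BAK1 changed sign to -0.04. PMAIP1 moved from -0.16 to -0.34 (edgeR adjusted p = 0.102, 95% interval from -0.61 to -0.06) and BBC3 from -0.13 to -0.34 (edgeR adjusted p = 0.206, 95% interval from -0.73 to 0.04). The log2 fold changes of BAX and BCL2 for SS over control differed by 1.34 without the offset and by 0.65 with it, and for SS over SS+NAC by 1.10 and 0.40. Those of MCL1 and PMAIP1 differed by -0.63 without and -0.27 with the offset for SS over control, and by -0.12 and 0.22 for SS over SS+NAC.

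**Figure D4:**
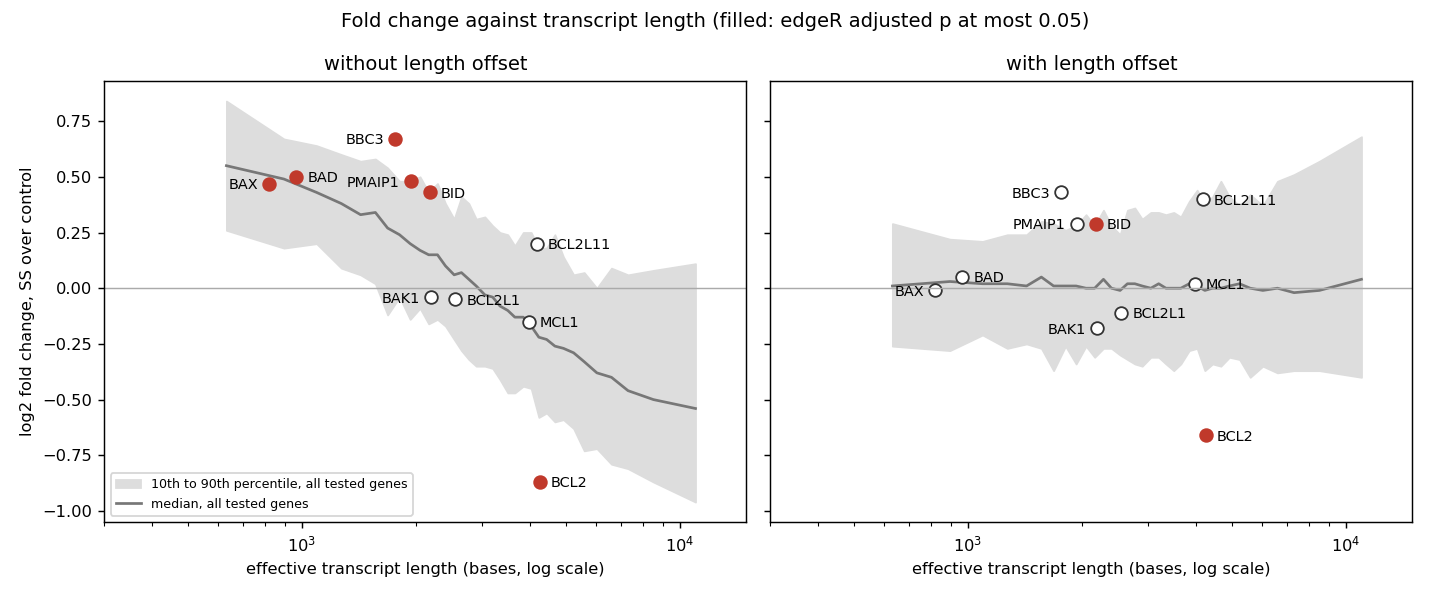
Log2 fold change of SS over control against effective transcript length in bases (log axis) without (left) and with (right) the length offset; the grey line and band are the median and the 10th to 90th percentiles of all tested genes in bins of length, and filled points are called by edgeR. Without the offset BAX (0.47) and BAD (0.50) lie near the median of genes of their length, and BCL2 lies below the band in both panels.

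Further genes of the same family were examined in the same way. Of 11 tested genes among 13 further BCL2 family genes, 3 were called for SS over control, against 40.0% of all tested genes, with 3 higher and 0 lower. The median log2 fold change was 0.22, and 0.03 with the length offset. BIK, a BH3-only gene, rose from 4.22 and 4.75 CPM to 7.19 and 7.90 CPM, by 0.74 (SE 0.151, edgeR adjusted p = 0.00332), and was at 4.27 and 3.90 CPM in SS+NAC. BCL2L12 rose by 0.30 (edgeR adjusted p = 0.0330) and BNIP3, a mitochondrial receptor for mitophagy, by 0.28 (edgeR adjusted p = 0.0177). With the offset 0 of the 11 were called by edgeR, against 9.23% of all tested genes, and 1 had an unadjusted p under 0.05. For SS+NAC over control, 0 were called by edgeR or DESeq2, where edgeR called 2.01% of all tested genes. Of the 11, 1 had an unadjusted edgeR p under 0.05.

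Downstream of mitochondria, where cytochrome c and APAF1 build the apoptosome, 9 of 17 genes were called for SS over control, against 40.0% of all tested genes, 6 higher and 3 lower. Their median was 0.18, and 0.06 with the offset. APAF1 fell by 0.62 (SE 0.0858, edgeR adjusted p = 0.000526), from 34.3 and 34.4 CPM to 21.2 and 23.6 CPM, and BIRC2, which encodes the ubiquitin ligase cIAP1, fell by 0.56 (SE 0.0827, edgeR adjusted p = 0.000705). ENDOG, a mitochondrial nuclease, rose by 0.59 (edgeR adjusted p = 0.0116) and HTRA2, a mitochondrial protease that antagonises inhibitors of apoptosis, rose by 0.42 (edgeR adjusted p = 0.00545). With the offset 3 genes were called, against 9.23% of all tested genes, namely CYCS (0.54, edgeR adjusted p = 0.00485), BIRC2 (-0.48, edgeR adjusted p = 0.00574) and HTRA2 (0.36, edgeR adjusted p = 0.0352), while APAF1 had -0.22 (edgeR adjusted p = 0.152) and ENDOG 0.19 (edgeR adjusted p = 0.411). CYCS, the gene of cytochrome c, was not called without the offset (0.20, edgeR adjusted p = 0.0952), at 258 and 225 CPM in control and 263 and 291 CPM in SS. For SS+NAC over control 0 of the 17 were called by edgeR or DESeq2, where edgeR called 2.01% of all tested genes. Of the 17, 3 had an unadjusted edgeR p under 0.05. For SS over SS+NAC 13 were called, 10 higher and 3 lower, against 42.7% of all tested genes, and 3 with the offset, against 14.4%.

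Of 16 transcription factors known to act on BCL2 family genes, 7 were called for SS over control, against 40.0% of all tested genes, 5 higher and 2 lower. Their median was 0.02, and 0.16 with the offset. With the offset 3 were called, all higher, against 9.23% of all tested genes, namely ATF3, DDIT3 and JUN (0.43, edgeR adjusted p = 0.00647). For SS+NAC over control 3 were called, all higher, against 2.01% of all tested genes. For SS over SS+NAC 4 were called, 1 higher and 3 lower, against 42.7%, and 1 with the offset, which was lower, against 14.4%. ATF3, a stress-induced factor, was at 7.34 and 6.56 CPM in control, 19.7 and 15.6 CPM in SS, and at least 18.6 CPM in both SS+NAC libraries. DDIT3, which encodes CHOP, was at 9.73 and 10.5 CPM in control, 20.3 and 20.2 CPM in SS, and 19.7 and 24.1 CPM in SS+NAC. Both genes were above control in all 4 treated libraries, and their treated groups overlapped, as for BBC3 and PMAIP1. ATF3 rose by 1.35 with SS (SE 0.164, edgeR adjusted p = 0.000290) and by 1.61 with SS+NAC (SE 0.161, edgeR adjusted p = 0.000461). DDIT3 rose by 1.0 (SE 0.121, edgeR adjusted p = 0.000290) and by 1.11 (SE 0.120, edgeR adjusted p = 0.000803). With the offset both kept these calls, with DDIT3 at 0.57 for SS over control (edgeR adjusted p = 0.0274), and DDIT3 was then lower in SS than in SS+NAC (-0.55, edgeR adjusted p = 0.0159). ATF4, a regulator of both, rose by 0.44 with SS (edgeR adjusted p = 0.00135), and by 0.12 with the offset, which did not pass (edgeR adjusted p = 0.253). CREB1 fell by 0.53 (edgeR adjusted p = 0.00449) and had -0.12 with the offset (edgeR adjusted p = 0.523).

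Of 9 genes for the turnover of MCL1 and BIM protein, 7 were lower in SS than in control and 0 higher, against 40.0% of all tested genes called, with a median of -0.36 and a median effective length of 5870 bases, against 3047 over all tested genes. The named examples are ligase genes, with TRIM2 at -0.76 (edgeR adjusted p = 0.00202), HUWE1 at -0.50 (edgeR adjusted p = 0.00169), FBXW7 at -0.48 (edgeR adjusted p = 0.00622) and BTRC at -0.36 (edgeR adjusted p = 0.0110). With the offset 0 of the 9 were called, against 9.23% of all tested genes. The median was then -0.01, and 4 of the 9 had an unadjusted edgeR p under 0.05. Of 17 genes for kinases that act on BAD and for 14-3-3 proteins, 8 were called, 4 higher and 4 lower, against 40.0% of all tested genes, and 4 with the offset, against 9.23%. PRKACB fell by 0.60 (edgeR adjusted p = 0.000717) and RPS6KB1 by 0.57 (edgeR adjusted p = 0.00217), and PIM1 rose by 0.57 (edgeR adjusted p = 0.00106). PRKACB (-0.38) and PIM1 (0.54) were called with the offset, with edgeR adjusted p of 0.0238 and 0.00664, and RPS6KB1 was not (-0.36, edgeR adjusted p = 0.0562). For SS+NAC over control, where edgeR called 2.01% of all tested genes, edgeR and DESeq2 called 0 of the turnover genes and 0 of the kinase and 14-3-3 genes. An unadjusted edgeR p under 0.05 was found for 0 of the turnover genes and 4 of the kinase and 14-3-3 genes. Between SS and SS+NAC, where 42.7% of all tested genes were called and 14.4% with the offset, 6 of the turnover genes were called, all lower in SS, and with the offset 1, which was higher. There 9 of the kinase and 14-3-3 genes were called, 6 higher and 3 lower, and 5 with the offset. Of the 11 further BCL2 family genes 4 were called in that comparison, all higher in SS, and 1 with the offset.

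**Figure D5:**
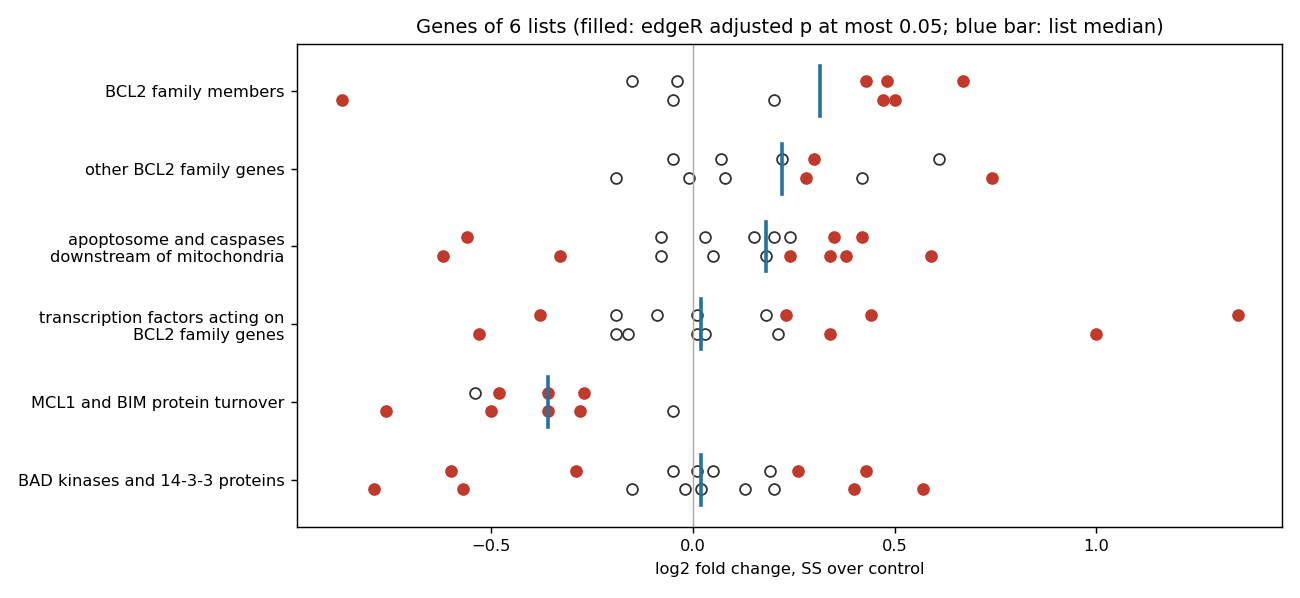
Log2 fold change of SS over control for each tested gene of 6 lists, with 1 point per gene (raised or lowered only to separate points), filled where edgeR's adjusted p was at most 0.05, and a blue bar at the median of each list. The medians run from -0.36 for genes of MCL1 and BIM protein turnover to 0.31 for the 10 BCL2 family genes, and with the length offset, which is not drawn, these are -0.01 and 0.04.

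Over the 6 libraries, the genes whose log2 CPM followed that of BCL2 most closely, among 12919 genes with at least 1 CPM in a group, were RPAP2, TEX2 and MDN1 by Pearson's correlation, on which no test was made because the libraries fall into treatment groups. RPAP2 was at 12.8 and 13.1 CPM in control, 10.3 and 9.73 CPM in SS, and 12.2 and 11.6 CPM in SS+NAC, the same order of groups as for BCL2. Its change for SS over control was -0.38 (edgeR adjusted p = 0.0193), and -0.39 with the length offset (edgeR adjusted p = 0.0463). With the offset TEX2 went from -0.57 to -0.26 and was no longer called (edgeR adjusted p = 0.0741), and MDN1, with an effective length of 13437 bases, went from -0.47 to 0.14 (edgeR adjusted p = 0.243). RPAP2, TEX2 and MDN1 were picked because they follow BCL2, which was lower in SS, so their p-values are no separate test of that difference.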

How the data were processed

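RNA of 6 KHM-5M libraries, 2 each of control, SS and SS+NAC cells, was analysed from a table of 17687 genes. The authors captured polyadenylated RNA, sequenced single-end reads, filtered them and, per the processing notes of the submitters, used HISAT2 2.0.4, Bowtie2 2.2.5 and RSEM 1.2.12. The expected counts are those the authors deposited from RSEM, and 48.5% of the values above 0 were not whole numbers within 1e-06. The FPKM values the authors deposited served only to derive effective lengths, and the TPM values they deposited to compare genes. Columns of the authors' comparisons hold fold changes, p-values and q-values between groups and were not used.

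Counts were rounded and fitted with edgeR 4.0.16 in R 4.3.3 (filterByExpr, TMM, quasi-likelihood test, all 6 libraries together, no covariates), with Benjamini-Hochberg adjustment over 14005 genes and genes were called where that value was 0.05 or less. The biological coefficient of variation was 6.74%. The fit was tested on simulated data. The paper speaks of biological replicates without saying how they were grown, so p-values measure the spread between 2 libraries per group. Replicates differed by more than sampling noise (chi-square per degree of freedom 3.05, 7.12 and 11.7 in control, SS and SS+NAC), and each was kept. The length offset was a lowess fit (span 0.3) of each library's deviation in log2 CPM on effective length. Other alternatives were DESeq2 1.42.0 (size factors, Wald test), other filters, only the compared groups, a replicate block, Bonferroni adjustment and leaving out each library, where a lone library is assumed to vary like the other groups.

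Named are all 10 members, up to 4 called genes of each other list with the largest change of SS over control and at least 1 CPM in a group, and the 3 genes most like BCL2. Some listed genes are not reported here. Marker genes, CYCS, JUN and GPR137 were named in addition, after their values were seen. Members and lists were chosen with earlier results of these data known. Gene models came from GENCODE 29 on GRCh38, and start-site sequences from RefSeq on GRCh38.p14. Tables and figures used Python 3.11.15, pandas 2.3.3, numpy 2.4.6 and matplotlib 3.10.9.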

Additional observations from a re-analysis of the deposited data

How the results depend on the processing

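Size factors of DESeq2 and the absence of a filter on low counts changed no call of the 10 genes, and the DESeq2 Wald test changed 1, that of BCL2L1 for SS+NAC over control. The length offset left 1292 called genes for SS over control and 2019 for SS over SS+NAC, with 2 and 1 BCL2 family genes, and gave MCL1 0.02 and BAX -0.01 for SS over control and BAK1 -0.04 for SS over SS+NAC, opposite in sign to the values without it; the cause was not tested. Bonferroni adjustment left 220, 40 and 191 genes for SS over control, SS+NAC over control and SS over SS+NAC, and 0 BCL2 family genes in each, where 6, 3 and 6 had an unadjusted edgeR p under 0.05 and DESeq2 called 6, 2 and 6. A minimum of 10 counts in every library called 2 of the 10 for SS+NAC over control, and DESeq2 also 2. DESeq2 split its 315 calls of SS+NAC over control into 178 higher and 137 lower, against 190 and 92 in edgeR.

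Leaving out 1 library gave 3118 to 6579 genes for SS over control with 4 to 6 of the 10, 98 to 1086 for SS+NAC over control with 0 to 3, and 3250 to 6339 for SS over SS+NAC with 3 to 7. Among values that did not pass the test with all libraries, the sign changed for BCL2L1 (-0.11 to 0.02) and BAK1 (-0.12 to 0.03) for SS over control, BAX (-0.12 to 0.07) and BCL2L11 (-0.01 to 0.17) for SS+NAC over control, and BBC3 (-0.34 to 0.11) and PMAIP1 (-0.33 to 0.03) for SS over SS+NAC.

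Replicate numbers are shared between groups, but the labels do not say that equal numbers belong together, and deviations from group means correlated at 0.113 (control and SS), -0.105 (control and SS+NAC) and -0.175 (SS and SS+NAC). The replicate block called 4857, 211 and 5136 genes, with 6, 1 and 5 of the 10, and BCL2L1 was the gene it did not call for SS over SS+NAC. With the numbers of SS+NAC crossed, an alternative chosen after seeing the data, the block called 7151, 1475 and 7286 genes, with 7, 3 and 6 of the 10. Of 390 values of single genes, which leave out Bonferroni adjustment and the crossed block, 352 kept their sign and their side of the threshold, 22 lost and 5 gained a call with the sign kept, and 11 changed sign, of which 1, BAX for SS over control with the length offset, also lost its call. Depth limits BCL2, BBC3 and BCL2L11 most, which had the fewest counts of the 10 genes.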

Other observations

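The effective length of a gene in each library, derived here from its deposited count and FPKM value, follows the mix of its transcripts. For MCL1, whose alternative splicing is known to yield a shorter form, it averaged 4066 bases in control, 3913 in SS and 3996 in SS+NAC. From control to SS this was a change of -3.75%, and 15.5% of 9527 genes with at least 10 CPM changed by as much or more in either direction. For BCL2L11, also known for several splice forms, the averages were 4274, 4086 and 4179 bases, and the control libraries alone lay at 4608 and 3939 bases. Transcript forms were not analysed here, and no test was made on these lengths.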
